A study of Mus musculus with 12 samples.

Results

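Circular RNAs (circRNAs) whose host gene was named as Eefsec, Eif5b, Rev1 or the joint value Eif5b,Rev1 were followed across 4 mouse cell lines. They were found by that exact host name in the tables of back-spliced junction reads, reads that cross the join closing a circle. There were 21 such circRNAs of 13474 listed in both tables together: 6 of Eefsec, 13 of Rev1, 2 of Eif5b,Rev1 and 0 of Eif5b alone. The table of the mammary lines lists 14 of them among 9492 circRNAs, and the table of the melanocytic lines lists all 21 among 12910. Reads were present for 20 of the 21. The hosts were chosen by the junction reads of B16F10 and Melan-a, in which their abundant circRNAs were higher in B16F10, so that comparison is described here without a test. The comparison of 4T1 with Eph4-ev was not the one used for the choice and was tested. Earlier results of these data were known when the hosts were chosen, so its p-values may not be free of that choice.

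Of the mammary lines, 4T1 is a breast cancer line and Eph4-ev a breast epithelial line. Of the melanocytic lines, B16F10 is a melanoma line and Melan-a a line of melanocytes. Each has 3 libraries. The labels give no treatment, age, passage or genotype for any line. All libraries were made from total RNA digested with RNase R, an exonuclease that removes linear RNA, so linear Eefsec and Rev1 transcripts were not measured. The series title asks which circRNAs are specific to tumours and encode peptides. Each lineage holds 1 tumour line and 1 non-tumour line, so tumour state and other differences between the lines cannot be told apart. Nothing in the labels says that replicates came from separate cultures, so the p-values measure the spread between these libraries, which may be technical.

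Eefsec is the elongation factor that brings selenocysteyl-tRNA to the ribosome at UGA codons, which are then read as selenocysteine instead of stop. Eif5b is the GTPase that joins the ribosomal subunits at the end of translation initiation. Rev1 is a Y-family DNA polymerase that inserts cytidine opposite damaged bases and serves as a scaffold for other translesion polymerases. A circRNA forms when the splice donor at the end of an exon is joined back to the splice acceptor at the start of the same or an earlier exon.

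The host name Eif5b rests on an overlap of gene models. In GENCODE M21 on GRCm38 (mm10), Rev1 lies on the minus strand at chr1:38052786-38129801 and Eif5b on the plus strand at chr1:37998010-38055579. They share 2794 bases, chr1:38052786-38055579, all within the 3′ UTR of Eif5b in its last exon, exon 24. On the opposite strand the same bases hold Rev1 exons 18 to 23. The circRNA with the joint name runs from Rev1 exon 7 to Rev1 exon 22, both ends of which are annotated Rev1 exon boundaries, and 0 ends of the 21 circRNAs lie at an Eif5b exon boundary. The tables give no strand. Both circRNAs with the joint name are therefore called by their Rev1 exons here, and no circRNA with ends at Eif5b exons was among the members.

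The junctions of the 4 most-read circRNAs are shown because they are what the reads count. Each has the last 25 bases of the donor exon in lower case and the first 25 bases of the acceptor exon in capitals, 5′ to 3′ on the minus strand, from GENCODE M21 transcripts.
Eefsec exons 3 to 4: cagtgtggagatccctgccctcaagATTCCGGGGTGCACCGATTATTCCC
Eefsec exons 5 to 6: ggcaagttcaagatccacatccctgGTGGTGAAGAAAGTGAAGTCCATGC
Rev1 exons 7 to 22: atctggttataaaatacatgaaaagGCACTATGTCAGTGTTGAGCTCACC
Rev1 exons 2 to 3: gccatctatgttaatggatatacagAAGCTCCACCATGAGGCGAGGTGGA
The capitals of Rev1 exons 2 to 3 hold 10 bases of 5′ UTR before the ATG that starts the Rev1 coding sequence. The other 3 junctions join coding sequence to coding sequence. For Eefsec exons 3 to 4, the most-read circRNA of the group, the annotated exons make a circle of 262 bases, given here whole with exon 3 in lower case and exon 4 in capitals.
Eefsec exons 3 to 4, circle: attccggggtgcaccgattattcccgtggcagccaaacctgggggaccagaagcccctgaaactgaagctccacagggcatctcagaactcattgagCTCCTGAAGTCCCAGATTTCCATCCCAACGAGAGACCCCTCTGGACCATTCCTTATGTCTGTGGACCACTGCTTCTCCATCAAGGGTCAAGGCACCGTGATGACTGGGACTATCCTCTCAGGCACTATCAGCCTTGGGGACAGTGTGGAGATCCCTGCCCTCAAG

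Both ends matched exon boundaries of the main transcript of Eefsec (7 exons) or Rev1 (23 exons) for 20 of the 21 circRNAs. The exception, Rev1 chr1:38079290-38128315, had 1 read and its boundary in another transcript. The Rev1 circRNAs fell into families by their first exon. Exon 7 was joined to exons 11, 12, 13 and 22, and exon 2 to exons 3, 4, 5, 8, 9 and 22. Among Eefsec circRNAs exons 2, 3 and 5 were the first exons and exons 4, 5 and 6 the last. The first and last exon of both genes entered none of the circles matched to the main transcripts.

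**Figure D1:**
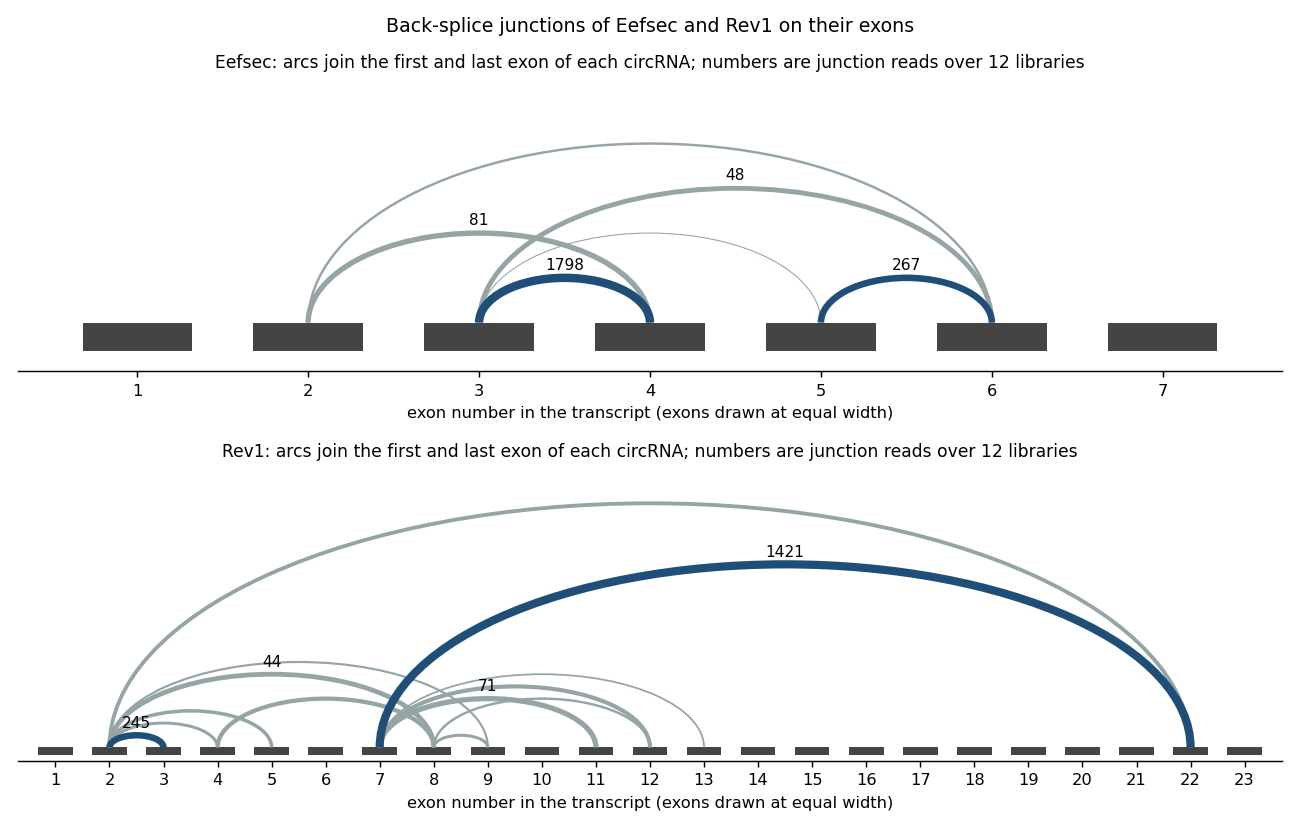
Each arc joins the first and last exon of a circRNA on the exon numbers of Eefsec (top) and Rev1 (bottom), with thicker arcs for more reads and numbers giving the junction reads over 12 libraries for the most-read circRNAs. Eefsec exons 3 to 4 held 1798 reads and Rev1 exons 7 to 22 held 1421, against 267 and 245 for the next circRNA of each gene.

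The most-read circRNAs differ in architecture. The Eefsec circle of exons 3 to 4 (chr6:88355483-88358642) lies between introns of 17561 bases upstream and 57246 bases downstream, and Eefsec exons 5 to 6 (chr6:88281549-88298236; 817 exonic bases) between 57246 and 23157. The Rev1 circle of exons 2 to 3 (chr1:38107568-38108467; 191 exonic bases) lies between introns of 20994 and 8546 bases. Rev1 exons 7 to 22 (chr1:38053616-38085652) spans 16 exons with 2431 exonic bases and lies between introns of 2318 and 417 bases, the shortest pair of these 4. Junction reads measure the join alone, so which internal exons these circles keep was not measured.

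Because the series title concerns encoded peptides, open reading frames were read from the annotated exons of each circle. With all of its exons kept, Rev1 exons 7 to 22 has a longest ATG frame of 826 codons, which ends 55 bases past the junction. That of Eefsec exons 5 to 6 has 296 codons and ends 95 bases past it, and that of Eefsec exons 3 to 4 has 56 codons and ends 60 bases past it. The frame of Rev1 exons 2 to 3, which begins at the Rev1 start codon, has 64 codons and ends 14 bases past the junction. Of the 20 circles matched to exon boundaries, 9 have a length that is a multiple of 3, each with an ATG frame that meets no stop. The most-read of these are Rev1 exons 7 to 11 (618 bases), exons 4 to 8 (1251 bases) and exons 7 to 12 (738 bases). Translation was not measured in these libraries.

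Libraries held 15572 to 44625 junction reads in 4T1, 50648 to 56649 in Eph4-ev, 16697 to 20011 in B16F10 and 25072 to 33557 in Melan-a. Levels are junction reads divided by the library's total and scaled as RPM, so 1 read stands for 17.7 to 64.2 RPM, and RPM says nothing of the amount per cell. In such bulk libraries, fewer cells carrying a circRNA and less of it per cell cannot be told apart. Epithelial markers had reads for 11 of 30 genes in the mammary table, with summed levels of 2312 to 3721 RPM in 4T1 and 2365 to 3024 in Eph4-ev. Krt5, Krt8, Krt14 and Krt18 were at 0, as circRNA hosts, in both lines. Melanocyte markers had reads for 12 of 19 genes in the melanocytic table, where epithelial markers had 1 read in all. Immune cell markers had 0 reads in both tables, and fibroblast markers had reads for 1 gene, Vim, in the melanocytic table only. Replicates differed by more than sampling noise, so none was merged. The 2 tables were scaled apart, so levels across all 4 lines are set side by side without a test.

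Eefsec exons 3 to 4 was among the most-read circRNAs of all 4 lines and had its highest levels in the melanocytic lines. The B16F10 libraries held 280, 258 and 304 of its reads and the Melan-a libraries 174, 163 and 189. In 4T1 there were 30, 27 and 55 and in Eph4-ev 96, 124 and 98. Its level was 15809 ± 2167 RPM in B16F10, rank 2 among the 6569 circRNAs with reads in the line, and 6437 ± 1397 in Melan-a, rank 8 of 6533 (SD, n = 3 each). It was 1950 ± 217 RPM in Eph4-ev (SD, n = 3), rank 58 of 8099, and 1560 ± 349 in 4T1 (SD, n = 3), rank 71 of 5882. Every B16F10 library was above every Melan-a library, and every Melan-a library above every mammary library, while 4T1 and Eph4-ev overlapped. Between the melanocytic lines, libraries did not overlap for 31.9% of 874 tested circRNAs. Such a share was not counted for lines of different lineages. The mean was 10.1-fold higher in B16F10 than in 4T1.

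Eefsec exons 5 to 6, the next circRNA of the gene, had the same order at a lower level in the melanocytic lines. Its reads were 32, 44 and 40 in B16F10, 27, 28 and 26 in Melan-a, 1, 11 and 19 in 4T1 and 12, 7 and 20 in Eph4-ev. That made 2197 ± 528 RPM in B16F10, 982 ± 129 in Melan-a, 240 ± 118 in Eph4-ev and 370 ± 282 in 4T1 (SD, n = 3 each). The 2 melanocytic lines did not overlap each other or the mammary lines, and the mammary lines overlapped, with 1 of the 3 4T1 libraries resting on a single read. Between the melanocytic lines this was so for 31.9% of 874 tested circRNAs. How often libraries of the 2 lineages were apart for other circRNAs was not counted.

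The other Eefsec circRNAs were minor. Eefsec exons 2 to 4 (chr6:88355483-88376411) shares its donor, the end of exon 4, with the most-read circRNA and counted 8, 4 and 9 reads in B16F10, 14, 11 and 15 in Melan-a, 3, 0 and 3 in 4T1 and 5, 3 and 6 in Eph4-ev. The circle of exons 3 to 6 (chr6:88281549-88358642) had 6, 8 and 9 reads in B16F10, 3, 6 and 5 in Melan-a, 0, 5 and 0 in 4T1 and 0, 3 and 3 in Eph4-ev. Exons 2 to 6 and exons 3 to 5 had 4 reads and 1 read in all, in the melanocytic lines. Each B16F10 library was above each Melan-a library for exons 3 to 6. This comparison chose the hosts, and 31.9% of its 874 tested circRNAs had libraries that did not overlap. Exons 3 to 6 was above the level of the filter on low counts, 222 RPM, in 3 B16F10 libraries and 0 Melan-a libraries. Nothing is therefore read from its order. Exons 2 to 4 averaged 392 ± 152 RPM in B16F10, below 494 ± 145 for Melan-a (SD, n = 3 each). For exons 2 to 4 the libraries of these lines overlapped.

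Rev1 exons 7 to 22, the circRNA with the joint host name, had the widest range of the 4 most-read circRNAs as a ratio of line means, though not in RPM. Its reads numbered 9, 4 and 23 in 4T1, 168, 143 and 158 in Eph4-ev, 210, 217 and 191 in B16F10 and 97, 145 and 56 in Melan-a. The level was 440 ± 188 RPM in 4T1, 2895 ± 399 in Eph4-ev, 3472 ± 1102 in Melan-a and 11580 ± 1163 in B16F10 (SD, n = 3 each). Its rank among the circRNAs of a line was 5 in B16F10, 22 in Melan-a, 29 in Eph4-ev and 444 in 4T1. The 3 B16F10 libraries were the highest and the 3 4T1 libraries the lowest, with no overlap with any other line, and Melan-a and Eph4-ev overlapped. Libraries did not overlap for 31.9% of 874 tested circRNAs between the melanocytic lines, the comparison that chose the hosts. Between the mammary lines the share was 37.6% of 1869, and between lines of different lineages it was not counted. The B16F10 mean was 26.3-fold the 4T1 mean.

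Rev1 exons 2 to 3, the circRNA that begins just before the Rev1 start codon, had another order. It had 47, 45 and 72 reads in Eph4-ev against 6, 7 and 7 in 4T1, 7, 7 and 9 in B16F10 and 10, 9 and 19 in Melan-a. The level was 1006 ± 260 RPM in Eph4-ev, 474 ± 252 in Melan-a, 434 ± 96.3 in B16F10 and 312 ± 135 in 4T1 (SD, n = 3 each). The Eph4-ev libraries were above those of every other line, and neighbours among the other 3 lines overlapped. Libraries of 4T1 and Eph4-ev did not overlap for 37.6% of 1869 tested circRNAs, and across lineages this was not counted.

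**Figure D2:**
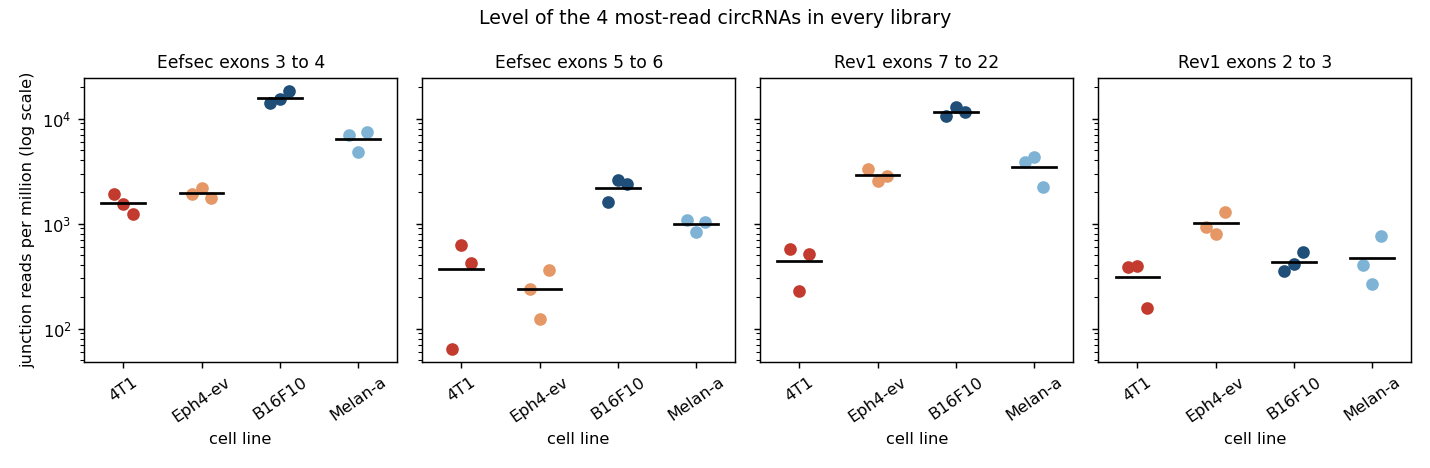
Points are single libraries and bars the mean of 3 libraries per line, in RPM on a log axis, for the 4 most-read circRNAs. Eefsec exons 3 to 4, Eefsec exons 5 to 6 and Rev1 exons 7 to 22 are highest in B16F10, Rev1 exons 2 to 3 is highest in Eph4-ev, and Rev1 exons 7 to 22 is lowest in 4T1.

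The remaining Rev1 circRNAs held few reads and were present in some libraries only. Rev1 exons 7 to 11 (chr1:38071343-38085652) had 17, 9 and 12 reads in B16F10, 13, 9 and 0 in Melan-a, 6, 0 and 0 in 4T1 and 3, 0 and 2 in Eph4-ev. The circle of exons 7 to 12 (chr1:38067500-38085652) shares its acceptor. Its Melan-a libraries held 6, 8 and 5 reads, its B16F10 libraries 3, 1 and 0, and the mammary table does not list it. The level of exons 7 to 12 was 225 ± 23.2 RPM in Melan-a and 69.6 ± 75.5 in B16F10 (SD, n = 3 each). These counts were too low for a test, so nothing is read from their order. Exons 2 to 8 (chr1:38083704-38108467) had 0, 1 and 2 reads in 4T1, 12, 7 and 5 in Eph4-ev, 4, 5 and 0 in B16F10 and 0, 0 and 8 in Melan-a. Exons 4 to 8 (chr1:38083704-38099021) had 0 to 5 reads in each of the 12 libraries and 26 in all. The other circRNA with the joint name, Rev1 exons 2 to 22 (chr1:38053616-38108467), had 9 reads in 4T1 replicate 3, 8 in Melan-a replicate 2 and 0 in the other 10 libraries. Exons 2 to 5 (chr1:38092063-38108467) had 12 reads in 5 libraries. The last 7 had 0 to 7 reads each over all 12 libraries. Apart from Rev1 exons 7 to 11 in the melanocytic lines, none of these passed the filter on low counts, so no difference between lines was tested for them.

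A single junction held most of the Eefsec reads in every library, and most of the Rev1 reads in every library of Eph4-ev, B16F10 and Melan-a. Over all Eefsec circRNAs, with 1004 reads in B16F10, 664 in Melan-a, 377 in Eph4-ev and 154 in 4T1, exons 3 to 4 held 83.8 ± 1.99% in B16F10, 79.2 ± 1.68% in Melan-a, 84.2 ± 6.70% in Eph4-ev and 74.2 ± 12.9% in 4T1 (SD, n = 3 each). Exons 2 to 4 held 2.07 ± 0.691% of the Eefsec reads in B16F10, below the 6.01 ± 0.687% in Melan-a (SD, n = 3 each), without overlap. Most of these reads belong to exons 3 to 4, whose higher B16F10 level was part of the choice of hosts. A lower share for another junction can follow from that choice, so nothing is concluded from it. The RPM of exons 2 to 4 overlapped between these lines (log2 fold change -0.38, SE 0.52). How often such shares were apart for other hosts was not counted. Over all Rev1 circRNAs, those with the joint name included, exons 7 to 22 held 88.2 ± 2.03% of 701 reads in B16F10, 71.4 ± 7.97% of 408 in Melan-a, 67.8 ± 4.08% of 692 in Eph4-ev and 40.0 ± 9.64% of 82 in 4T1 (SD, n = 3 each). Circles that start at exon 7 together held 94.5 ± 1.16% in B16F10 and 48.7 ± 17.3% in 4T1.

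In the mammary lines the shares could be tested, although 3 libraries against 3 cannot give a p below 0.1. The share of Eefsec exons 3 to 4 was 10.1 points lower in 4T1 than in Eph4-ev (exact permutation test, two-sided, p = 0.3). The difference was -17.1 points without 4T1 replicate 1 and -4.38 points without 4T1 replicate 2. Among rows that name Rev1 alone, exons 2 to 3 held 56.9 ± 18.4% in 4T1 against 72.8 ± 7.85% in Eph4-ev (SD, n = 3 each; exact permutation p = 0.3). This difference of -15.9 points was -8.92 without 4T1 replicate 1 and -26.4 without 4T1 replicate 2. With the joint-name rows added, the share of exons 7 to 22 differed by -27.9 points, lower in 4T1 (exact permutation p = 0.1, the smallest this design allows), and the libraries did not overlap.

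**Figure D3:**
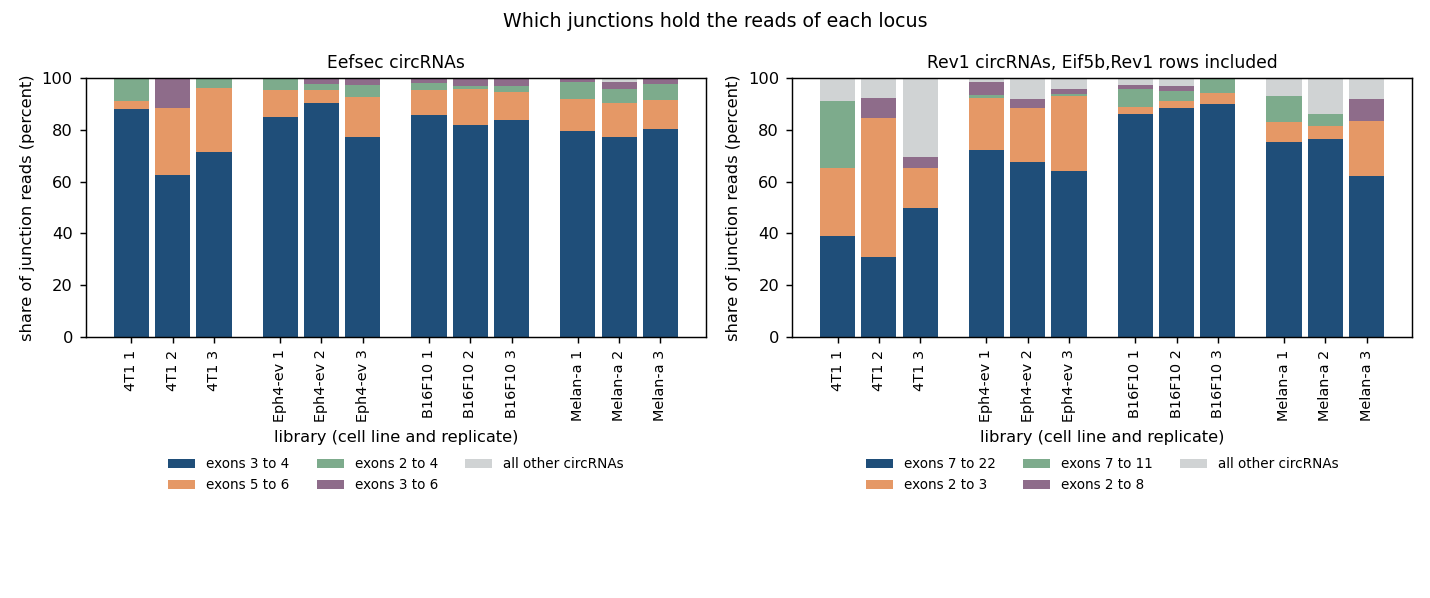
Stacked bars give the percent of the junction reads of each locus held by each circRNA, with 1 bar per library, for Eefsec (left) and for Rev1 with the joint-name rows (right). Exons 3 to 4 holds 62.8% to 90.5% of Eefsec reads, while Rev1 exons 7 to 22 holds 30.8% to 50.0% in 4T1 and 86.1% to 90.1% in B16F10.

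Between the mammary lines, both tested Rev1 circRNAs were lower in 4T1 and neither tested Eefsec circRNA passed the test. Of the 14 circRNAs in that table, 4 passed the filter on low counts and were tested: Rev1 exons 7 to 22, Rev1 exons 2 to 3, Eefsec exons 3 to 4 and Eefsec exons 5 to 6. The circRNA of Rev1 exons 7 to 22 fell in 4T1 with a log2 fold change of -2.88 (SE 0.33, edgeR quasi-likelihood test with Benjamini-Hochberg adjustment over all circRNAs, adjusted p = 0.000453), with a mean RPM 6.59-fold lower. So did Rev1 exons 2 to 3, with a log2 fold change of -2.04 (SE 0.47, edgeR adjusted p = 0.015) and a mean RPM 3.22-fold lower. For Eefsec exons 3 to 4 the log2 fold change was -0.59 (SE 0.25, edgeR adjusted p = 0.136), and for Eefsec exons 5 to 6 it was 0.44 (SE 0.74, edgeR adjusted p = 0.751).

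The 2 of 4 members called stand beside 17.4% of 1869 circRNAs called in this comparison, with 112 higher and 213 lower in 4T1 (11.4% lower). The libraries of the 2 lines did not overlap for both Rev1 circRNAs, as for 37.6% of all tested circRNAs. Scaling by total reads alone moved the median log2 fold change of all circRNAs from -0.22 to -0.01 and the split to 142 higher and 176 lower. Both Rev1 calls held under it. Without Eph4-ev replicate 2 or 3, Rev1 exons 2 to 3 had an edgeR adjusted p of 0.0708 or 0.0821 and was no longer called, while Rev1 exons 7 to 22 kept its call in all 13 alternatives (adjusted p up to 0.00575). Without Eph4-ev replicate 1, 2 or 3 the count over all circRNAs was 167, 72 or 143 in place of 325.

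Host sums gave the same calls for each gene, but they add up the same reads and are not separate evidence. The Rev1 sum, without the joint-name rows, fell in 4T1 (log2 fold change -1.51, SE 0.40, edgeR adjusted p = 0.017), as did the joint-name feature Eif5b,Rev1 (-2.53, SE 0.34, edgeR adjusted p = 0.000106). With joint-name rows counted for Rev1 as well, its log2 fold change was -2.14 (edgeR adjusted p = 3.51e-05). The Eefsec sum had a log2 fold change of -0.29 (SE 0.23, edgeR adjusted p = 0.438). Among all 1516 hosts tested, 17.4% were called. The Rev1 call was lost without 4T1 replicate 3 (adjusted p = 0.0737), Eph4-ev replicate 2 (0.0961) or Eph4-ev replicate 3 (0.0792).

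Between the melanocytic lines, the comparison that chose the hosts, the log2 fold change of B16F10 over Melan-a is given as a description. It could be fitted for 7 of the 21 circRNAs. It was 1.66 for Rev1 exons 7 to 22 (SE 0.28), 1.23 for Eefsec exons 3 to 4 (SE 0.23) and 1.09 for Eefsec exons 5 to 6 (SE 0.32), with mean RPM 3.34-fold, 2.46-fold and 2.24-fold higher. Rev1 exons 7 to 11 was at 1.34 (SE 0.71) and Eefsec exons 3 to 6 at 1.29 (SE 0.66). Eefsec exons 3 to 6 was above the filter level of 222 RPM in 3 B16F10 libraries and 0 Melan-a libraries. For Rev1 exons 7 to 11 it was 3 and 2. Both thus passed the filter through B16F10, where they were higher, so the sign of their values adds no support. Rev1 exons 2 to 3 was at -0.17 (SE 0.53) and Eefsec exons 2 to 4 at -0.38 (SE 0.52). Both of these lay within 1 SE of 0, and without Melan-a replicate 3 Rev1 exons 2 to 3 was at 0.28. For Rev1 exons 7 to 11, which had 0 reads in Melan-a replicate 3, the value was 0.77 without that library and 2.10 without Melan-a replicate 1. In this comparison 10.9% of 874 circRNAs passed the test, from which nothing is read about the members.

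Summed per host, the log2 fold change was 1.13 for Eefsec, 1.61 for Eif5b,Rev1 and 0.24 for Rev1 without the joint-name rows. With those rows counted for Rev1 as well, it was 1.36 for Rev1. Melanocyte markers are given beside them: their summed level was 11391 to 13293 RPM in B16F10 and 5804 to 10072 in Melan-a. The sum was led by Pmel, a protein of melanosome fibrils (log2 fold change 0.83, SE 0.26, edgeR adjusted p = 0.0666). Single markers went both ways. Trpm1 was at -0.99 (SE 0.48, edgeR adjusted p = 0.254) and Rab38 at 1.16 (SE 0.79, edgeR adjusted p = 0.438). The median log2 fold change of the 5 tested markers was 0.18. Of the 19 markers, Mlana, Kit, Ednrb, Slc24a5, Mc1r, Gpr143 and Mreg were at 0 in both lines. None of the 5 tested markers was called by edgeR, 1 had an unadjusted p under 0.05, and DESeq2 called 1. Their part in the levels of Eefsec and Rev1 circRNAs was not tested.

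**Figure D4:**
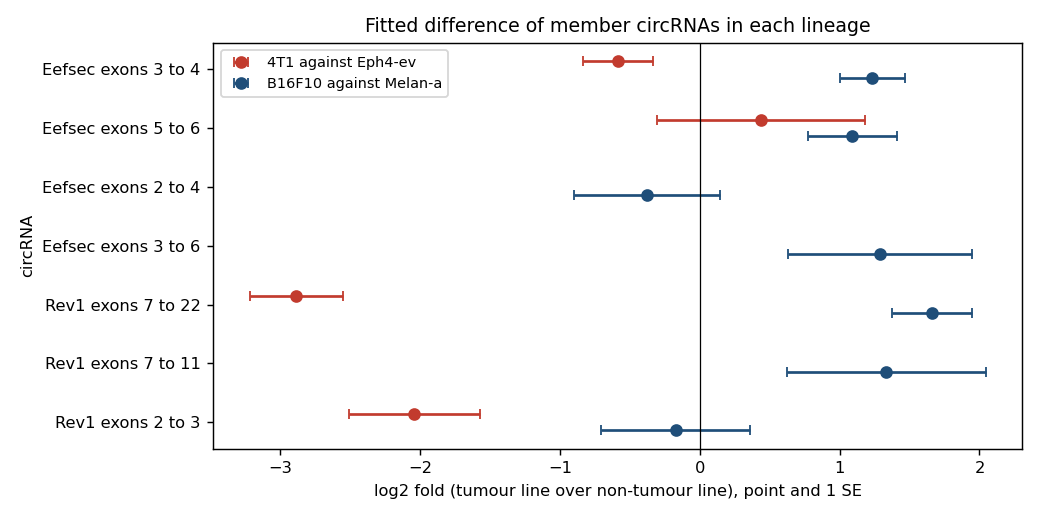
Points are fitted log2 fold changes of the tumour line over the non-tumour line, with bars of 1 SE, for each circRNA that passed the filter in a lineage. Rev1 exons 7 to 22 lies at -2.88 in the mammary lines and 1.66 in the melanocytic lines, and the melanocytic points chose the hosts and carry no test.

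Genes of the pathways around these hosts were counted as circRNA hosts, with the members left out. In the mammary lines the selenocysteine pathway, which makes and decodes selenocysteine, had 7 of 44 symbols with reads and 2 tested, and edgeR called 0 (0 at an unadjusted p under 0.05, 0 by DESeq2). These were Ept1, itself a selenoprotein (log2 fold change -0.47, SE 0.62, edgeR adjusted p = 0.666), and Secisbp2l, a relative of the protein that binds selenocysteine insertion elements (0.65, SE 1.11, edgeR adjusted p = 0.745). Translation initiation factors had 22 of 57 symbols with reads and 11 tested. Of these, 0 were called higher and 2 lower in 4T1, beside 10.6% lower among all hosts, and their median log2 fold change was 0.94 against -0.09 for all hosts, so the called hosts and the median differ in sign.

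Eif4g3, a scaffold of the cap-binding complex, fell from 79, 67 and 70 reads in Eph4-ev to 11, 11 and 14 in 4T1 (log2 fold change -1.53, SE 0.39, edgeR adjusted p = 0.0137). Eif3a, a core subunit of initiation factor eIF3, had 2, 3 and 0 against 23, 28 and 31 and fell (-2.80, SE 0.88, edgeR adjusted p = 0.0388). Eif4h, a cofactor of the helicase Eif4a, did not pass (1.15, SE 0.43, edgeR adjusted p = 0.0834), but was called higher with a minimum count of 10 (adjusted p = 0.0432). Eif4g3 lost its call without 4T1 replicate 3 (adjusted p = 0.0631), Eph4-ev replicate 1 (0.0734) or Eph4-ev replicate 2 (0.0821), and when libraries were thinned to equal depth (0.377). Eif3a lost it without 4T1 replicate 3 (0.0886), without any 1 of the Eph4-ev replicates 1, 2 and 3 (0.0897, 0.181 and 0.131), and when scaled by total reads (0.0524).

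Elongation and termination factors had 9 of 25 symbols with reads and 1 tested, Eef2, the GTPase that moves the ribosome along the mRNA, and edgeR called 0 (0 at an unadjusted p under 0.05, 0 by DESeq2; Eef2 log2 fold change 2.38, SE 1.22, adjusted p = 0.205). Translesion synthesis, the pathway of Rev1, had 9 of 28 symbols with reads and 3 tested. Of these, 1 was called lower in 4T1, beside 10.6% lower among all hosts. With 3 tested, nothing is read about the pathway. Rad18, the ubiquitin ligase that marks PCNA at stalled forks, fell from 38, 45 and 55 reads in Eph4-ev to 6, 2 and 5 in 4T1 (-2.34, SE 0.56, edgeR adjusted p = 0.0104). Rev3l, the catalytic subunit of polymerase zeta, had 3, 0 and 0 reads against 21, 10 and 9 and did not pass (-2.48, SE 1.22, edgeR adjusted p = 0.18). It was called lower without 4T1 replicate 1 (adjusted p = 0.033), which leaves 4T1 at 0 reads. Zranb3, a fork-remodelling translocase, was at 1.27 (edgeR adjusted p = 0.562). The Rad18 call was lost without Eph4-ev replicate 2 (0.084) or replicate 3 (0.0551) and when thinned (0.0611).

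In the melanocytic lines edgeR called 0 hosts of these 4 lists, where 7.34% of 899 hosts were called. Tested hosts numbered 1 for the selenocysteine pathway, 6 for initiation, 1 for elongation and termination and 1 for translesion synthesis, and DESeq2 called 0 in each. At an unadjusted p under 0.05 there were 1, 1, 0 and 0. Txnrd3, a selenoprotein reductase, had 12, 12 and 10 reads in Melan-a against 0, 3 and 3 in B16F10 (log2 fold change -1.88, SE 0.82, edgeR adjusted p = 0.201). Eif3a had 1, 0 and 3 against 10, 14 and 17 (-2.73, SE 0.82, edgeR adjusted p = 0.0619). Rad18 was at 0.01 (SE 0.61) and Eef2k, the kinase of Eef2, at -1.20 (SE 0.58, edgeR adjusted p = 0.252).

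The circRNAs whose levels were most like those of the 2 main members over the 12 libraries came from other genes. Pearson's r of log2 RPM was computed against 333 circRNAs with at least 5 reads on average in every line. For Eefsec exons 3 to 4 the highest values were those of Trip6 (chr5:137311874-137312233; r = 0.92), Hipk3 (chr2:104470749-104471847; r = 0.90) and Zranb1 (chr7:132948044-132950435; r = 0.89). For Rev1 exons 7 to 22 they were those of Ezh2 (chr6:47576536-47577667; r = 0.97), Dennd1b (chr1:139040000-139062971; r = 0.93) and another Ezh2 circRNA with the same end (chr6:47576563-47577667; r = 0.90). The r between the 2 main members was 0.82. The points share their libraries, library totals and 4 lines, so these values only describe likeness. The median r over all 333 was 0.05 for Eefsec exons 3 to 4 and 0.04 for Rev1 exons 7 to 22.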

How the data were processed

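RNase R-treated total RNA was sequenced, and circRNAs were detected with CIRI2 (BWA-MEM) and CIRCexplorer2 (TopHat, TopHat-Fusion), per the labels' protocols. Coordinates are on mm10, which the submitters' processing notes name. Filters, annotation and how callers were combined were not given in the sources used here. The deposited count columns hold back-spliced junction reads, per the file headers. The deposited RPM columns divide each count by its column total: all RPM values gave whole reads within 0.01, identical to the counts. There were 0 sample columns without a label. Without molecular identifiers, reads may not be independent molecules.

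Each lineage was fitted on its whole table with edgeR 4.0.16 (R 4.3.3; quasi-likelihood test, TMM, filterByExpr with minimum count 5 and total 10, Benjamini-Hochberg) and called at adjusted p under 0.05. Folds are tumour over non-tumour line. The SE of a log2 fold change is its absolute value divided by the square root of the F statistic of the quasi-likelihood test. Host sums use rows with 1 host, Eif5b,Rev1 being its own feature. Exons and sequences come from GENCODE M21. Every member with at least 10 reads is named. Of each list up to 3 tested hosts with the smallest p are named, and 3 circRNAs most like each main member. Lists hold older symbols too. Alternatives were RLE factors, total reads, no filter, minimum count 10, DESeq2 1.42.0, a replicate block, thinning, counting joint rows for each host, and leaving out each library. The members and lists were chosen with earlier results of these data known.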

Additional observations from a re-analysis of the deposited data

Results flagged for a closer look

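Among the members, Rev1 exons 7 to 22 was set apart because it differed in opposite directions in the 2 lineages. Its mean RPM in 4T1 was 0.152 times that in Eph4-ev, and its mean RPM in B16F10 was 3.34 times that in Melan-a. Every 4T1 library was below every Eph4-ev library (at most 578 against at least 2524 RPM), and every B16F10 library was above every Melan-a library (at least 10494 against at most 4321 RPM). Libraries did not overlap for 37.6% of 1869 tested circRNAs in the mammary lines and for 31.9% of 874 in the melanocytic lines. How many circRNAs outside the members did so in opposite directions was not counted. The difference between the lineages was not tested, and the melanocytic values had chosen the host.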

How the results depend on the processing

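Between the mammary lines 2 member circRNAs were called, and 1 to 2 when single libraries were left out. Of the hosts 2 were called, and 1 to 2 when single libraries were left out. Between the melanocytic lines, 5 members were past a 2-fold difference, and 4 to 7 when single libraries were left out. There were 4 with a minimum count of 10 or when thinned, and 11 with no filter, where members with few reads enter. Of the hosts 2 were past a 2-fold difference, and 1 to 2 when single libraries were left out. This comparison chose the hosts. How many of all circRNAs or hosts were past 2-fold was not counted, so nothing is read from these counts. Replicates share only a number: the correlation of deviations in same-numbered libraries was 0.032, -0.035 and 0.027 in the mammary and 0.061, -0.054 and -0.003 in the melanocytic lines, and not every library was closest to its own number. With the replicate block the member calls were 2, and calls over all circRNAs of the mammary lines 248 in place of 325. Over all circRNAs, 183 were called when thinned and 72 to 247 when single libraries were left out (melanocytic: 96 and 42 to 145, in place of 95). Over all hosts it was 74 to 262 in place of 264 (melanocytic: 33 to 112 in place of 66). Eefsec exons 3 to 4 passed in none of 13 alternatives (adjusted p 0.0768 to 0.627), and Eefsec exons 5 to 6 in none of the 12 that kept it (0.443 to 0.993). Of the 14 members in the mammary table, 10 had too few reads to be tested. The cause of the changes was not tested.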
